A study of Mus musculus with 57 samples.

Results

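The collagens, laminins, nidogens, perlecan and fibronectin are the proteins from which the extracellular matrix is built. The genes described here were taken by their symbol, as every gene whose symbol has the form of a collagen chain or a laminin chain, together with Nid1, Nid2, Hspg2 and Fn1. That gave 59 of the 54307 genes in the table. They comprise 11 fibrillar collagen genes, 20 basement membrane genes, 2 multiplexin genes, 9 genes of fibril-associated collagens, 12 of microfibril, anchoring and network collagens, 4 of transmembrane collagens, and fibronectin. All were followed in the livers of 57 male wild-type C57BL/6JJcl mice, collected to test a method that estimates the cell makeup of bulk liver RNA.

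The mice arrived at an age of 6 weeks. After 1 week of acclimatisation and a fast of 12 h they were dosed once, and 24 h later RNA was taken from the outer left lateral lobe of the perfused liver. By gavage, 4 mice received alpha-naphthyl isothiocyanate (ANIT), 7 received 4,4'-methylene dianiline (MDA), 6 received acetaminophen (APAP) and 5 received thioacetamide (TAA), and 13 received 0.5% methylcellulose as their control (Ctrl). By intraperitoneal injection, 7 mice received carbon tetrachloride (CCl4) and 4 received galactosamine (GAL), with 2 mice on saline as controls (CIP). By tail vein, 7 mice received concanavalin A (ConA), with 2 mice on saline as controls (CIV). ANIT and MDA are known for injuring bile duct cells, APAP, TAA and CCl4 for injuring the hepatocytes around the central vein after these cells activate them, GAL for blocking RNA synthesis in hepatocytes, and ConA for activating T cells. The labels give no amount for any compound and name corn oil among the vehicles used, but all the controls analysed here received methylcellulose or saline. The libraries held between 13826342 and 35075808 estimated counts (median 21532115).

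Matrix in liver comes in distinct forms. Fibrillar collagens assemble into the rope-like fibres of the portal tracts and, in fibrosis, of scars, and stellate cells and portal fibroblasts are known as their main sources. Basement membranes are sheets in which a network of collagen IV and a network of laminin, each laminin an alpha, a beta and a gamma chain, are tied together by nidogen and perlecan. The liver sinusoid is known for lacking a continuous basement membrane, although its cells make some of the components. Fibronectin is made by hepatocytes as a plasma protein and by other cells as a matrix protein.

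The stretches of DNA just before the transcription starts of 3 members are shown because the results below turn on these genes: Col1a2 and Col3a1 encode fibrillar chains that were lower after the bile duct toxicants, and Nid1 had the largest rise among the basement membrane genes after TAA. They are the 250 bases upstream of the start in RefSeq (GRCm38.p6, plus strand, 5' to 3'), at chr6:4505368-4505617, chr1:45311288-45311537 and chr13:13437352-13437601. Capitals mark matches to CCAAT, to the GC box GGGCGG or to TATAAA on either strand, so that ATTGG is a CCAAT read from the other strand.
Col1a2: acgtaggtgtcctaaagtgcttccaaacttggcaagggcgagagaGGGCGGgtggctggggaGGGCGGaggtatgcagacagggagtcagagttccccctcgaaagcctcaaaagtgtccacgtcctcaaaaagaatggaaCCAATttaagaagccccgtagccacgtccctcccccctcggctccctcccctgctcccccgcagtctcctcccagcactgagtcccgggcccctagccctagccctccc
Col3a1: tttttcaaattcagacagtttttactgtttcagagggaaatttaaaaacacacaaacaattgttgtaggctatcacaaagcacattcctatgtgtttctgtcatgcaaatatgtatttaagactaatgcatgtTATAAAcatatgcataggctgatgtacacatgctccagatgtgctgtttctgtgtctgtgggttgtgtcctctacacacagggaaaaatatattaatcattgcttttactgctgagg
Nid1: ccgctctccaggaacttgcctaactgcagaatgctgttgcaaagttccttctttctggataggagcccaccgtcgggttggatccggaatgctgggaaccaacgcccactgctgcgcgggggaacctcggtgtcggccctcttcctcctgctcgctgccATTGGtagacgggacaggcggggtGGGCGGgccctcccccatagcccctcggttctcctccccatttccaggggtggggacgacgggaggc

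In the Col1a2 stretch the CCAAT begins 109 bases before the start and the GC boxes 188 and 205 bases before it. The Nid1 stretch has its CCAAT 91 and its GC box 67 bases before the start, and the Col3a1 stretch holds TATAAA 117 bases before the start. G and C made up 62.0% of the Col1a2 bases, 64.4% of the Nid1 bases and 35.2% of the Col3a1 bases. Col4a1 and Col4a2, the chains of the common form of collagen IV, lie head to head on chromosome 8, the first on the minus strand with its start at 11312826 and the second on the plus strand with its start at 11312805. The 22 bases from the one start to the other (chr8:11312805-11312826, plus strand) hold a GC box, in capitals.
Col4a1 and Col4a2: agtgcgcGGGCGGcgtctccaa

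RefSeq windows of 250 bases before to 50 bases after a start were at hand for 42 of the 59 members, 46 windows in all. GGGCGG stood in 28 of these 46 windows (60.9%) and in 35.7% of the 32851 windows of all genes. CCAAT stood in 15 (32.6%, against 37.4%), TATAAA in 5 (10.9%, against 13.6%) and TGANTCA, the letters bound by AP-1, in 1 (2.17%, against 7.81%). These matches describe letters only and were not tested for binding.

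Levels are given as CPM, a count scaled to the size of its library, after scaling between libraries. The deposited values fell with transcript length the way length-corrected values do, so a CPM is read here as a level per length. Comparisons of level between genes, ratios included, rest on that reading, which comes from the smallest values in each length class and not from a stated step. A gene was called higher or lower when its adjusted p in edgeR's quasi-likelihood test was under 0.05. Of the 59 members, 33 passed the filter on low values in all 7 comparisons with the route vehicle, 6 passed in some and 20 in none. An average of 1 CPM or more in some group was reached by 35 members, and 13 stayed under 0.1 CPM in every group. The 20 that were never tested include the cartilage collagens Col2a1 and Col10a1, and Col4a3, Col4a4 and Col4a6, the minor chains of collagen IV.

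No member was called between the vehicles. Against Ctrl, edgeR called 0 of 37 members in CIP, where 0.0131% of all genes were called, and 0 of 37 in CIV, where 0.0263% were called. DESeq2 also called 0 members in each, with 51 genes higher and 63 lower in CIP and 19 higher and 56 lower in CIV. At an unadjusted p under 0.05 there was 1 member in CIP, Nid1, and 0 in CIV. The number of all genes called rested on single mice: edgeR called 104 higher and 11 lower without CIP mouse 7, and 90 higher and 58 lower without CIV mouse 7, with 0 members among them, where the lone mouse left is assumed to vary like Ctrl. With the replicate number as a block CIV gave 124 higher and 94 lower genes and 0 members.

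Most matrix genes called after ANIT and MDA were lower, and most of those called after APAP were higher, while the other compounds gave mixed calls. After ANIT, 3 of 37 members tested were higher and 20 lower, where 14.0% of all genes were called higher and 14.2% lower. After MDA, 5 of 36 were higher and 19 lower, against 17.4% and 16.4% of all genes. After APAP, 14 of 36 were higher and 2 lower, against 17.3% and 14.6%. After TAA, 13 of 38 were higher and 7 lower, against 26.4% and 24.0%. These 4 comparisons share the Ctrl mice. After CCl4, 3 of 37 were higher and 8 lower, against 18.0% and 15.6%, and after GAL, 4 of 37 were higher and 4 lower, against 12.8% and 15.7%. These last share the 2 CIP mice, and the counts for GAL were near or under the background. After ConA, 8 of 34 were higher and 6 lower, against 16.8% and 17.3%. In bulk RNA, fewer cells of a type and less RNA per cell cannot be told apart.

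**Figure D1:**
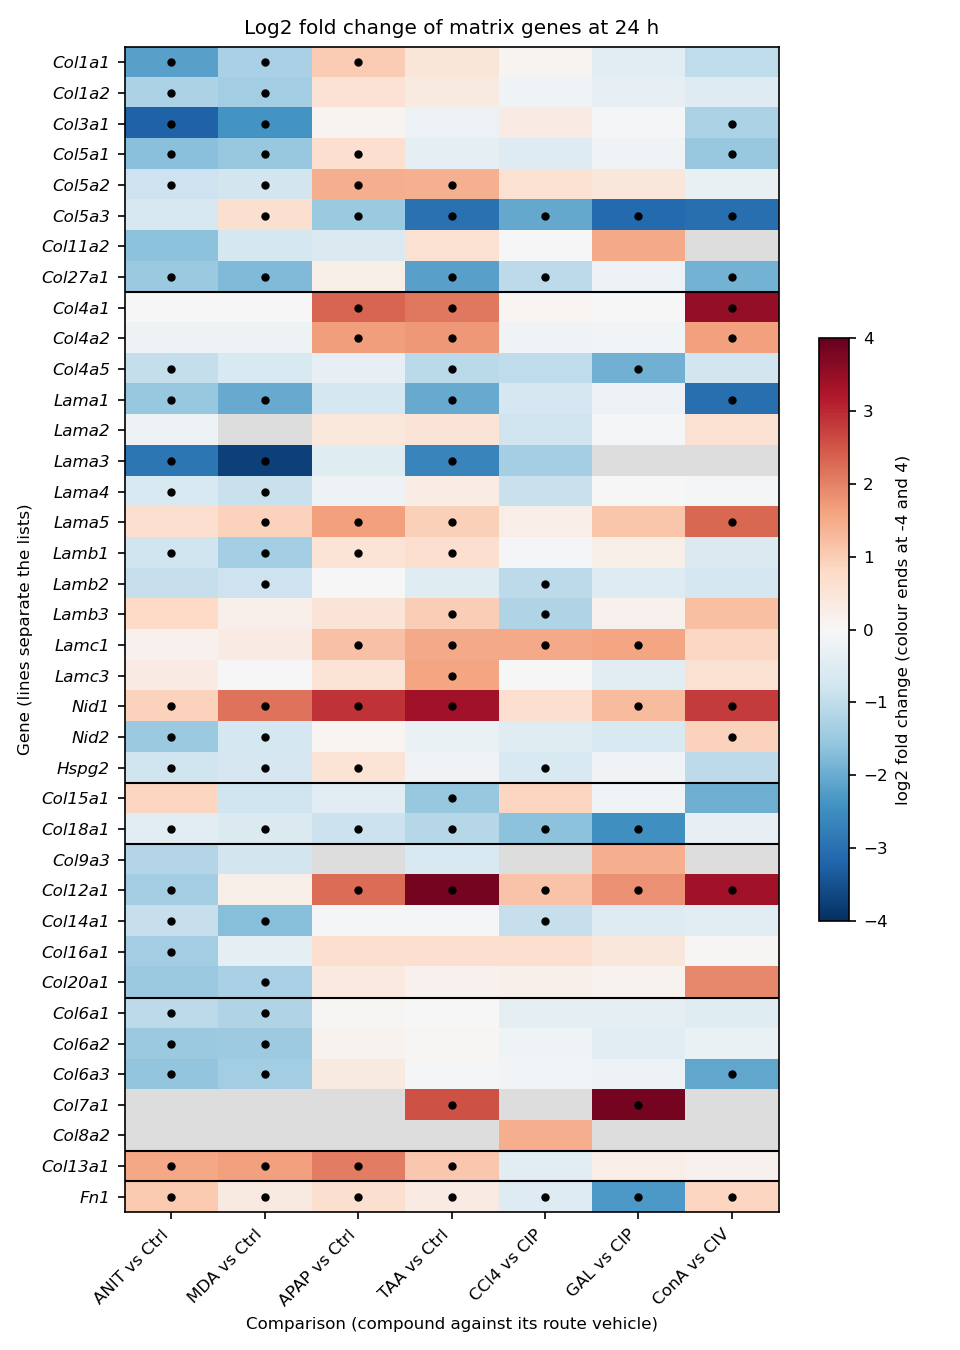
Heat map of the log2 fold change of matrix genes (vertical axis, grouped by list) for each compound against its route vehicle (horizontal axis), where red is higher, blue lower, gray not tested, and a dot marks an adjusted p under 0.05. Most of the fibrillar collagens at the top are blue after ANIT and MDA, with Col5a3 red after MDA, and Col4a1, Col4a2 and Nid1 are red after APAP, TAA and ConA.

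Most of the fibrillar collagens tested were lower after both bile duct toxicants. Of 8 tested, 6 fell after ANIT (14.2% of all genes) with a median log2 fold change of -1.56 over the 8, beside -0.01 over all genes, and 6 fell and 1 rose after MDA (16.4% and 17.4%) with a median of -1.34, beside 0.03 over all genes. Col3a1, the type III chain found with type I in the fine reticular fibres of liver, ranged in Ctrl from 17.2 to 64.3 CPM with a median of 29.4. The 4 ANIT livers had 3.01, 3.56, 3.44 and 3.69 CPM, and the MDA livers ran from 4.07 to 8.05 with a median of 5.96. Every ANIT and every MDA liver was thus below the lowest Ctrl liver. The log2 fold change was -3.22 after ANIT (SE 0.32, adjusted p = 2.58e-06), a 9.34-fold lower level, and -2.40 after MDA (SE 0.24, adjusted p = 2.27e-07). Among mice numbered 1 to 4 alone these values were -3.46 and -2.78, and among mice with higher numbers, where ANIT has no mouse, MDA gave -2.13.

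Type I collagen, the main collagen of scars, is built from Col1a1 and Col1a2 chains. Col1a1 lay between 1.51 and 10.5 CPM in Ctrl with a median of 4.87. It stood at 1.74, 0.956, 0.936 and 0.883 CPM after ANIT, and 3 of these 4 livers were below every Ctrl liver (log2 fold change -2.16, SE 0.40, adjusted p = 0.000711). After MDA it ran from 1.13 to 5.06 with a median of 1.60, overlapping Ctrl (-1.29, SE 0.34, adjusted p = 0.00518). Within the MDA and Ctrl mice numbered above 4, the Col1a1 value was -0.99 with an adjusted p of 0.188. Col1a2 ran from 2.96 to 14.4 CPM in Ctrl with a median of 6.47. After ANIT it stood at 2.87, 3.30, 1.99 and 4.51 CPM, which overlapped Ctrl (-1.27, SE 0.36, adjusted p = 0.0144), and the call was lost without ANIT mouse 3, at -1.10 with an adjusted p of 0.0691. After MDA it ran from 1.85 to 4.62 with a median of 2.65, again overlapping (-1.39, SE 0.28, adjusted p = 0.000693).

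Col5a1, the common type V chain, which helps to set how thick a fibre grows, ran from 2.65 to 7.18 CPM in Ctrl with a median of 5.41. It stood at 1.86, 2.13, 0.616 and 2.10 after ANIT, all below Ctrl (-1.66, SE 0.31, adjusted p = 0.000737). After MDA it ran from 0.992 to 3.53 with a median of 1.81, overlapping Ctrl (-1.51, SE 0.24, adjusted p = 5.77e-05). Col27a1, a fibrillar collagen best known from cartilage, ran from 4.27 to 8.72 CPM in Ctrl and from 0.913 to 4.09 after MDA with a median of 1.41. Those groups did not overlap (-1.75, SE 0.25, adjusted p = 1.99e-05).

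After APAP and TAA the fibrillar collagens went in different directions from one another. APAP gave 3 higher and 1 lower of 8 (17.3% and 14.6% of all genes) with a median of 0.40, beside 0.07 over all genes. TAA gave 1 higher and 2 lower of 8 with a median of 0.06, beside 0.03, and these counts were at or under the 26.4% and 24.0% of all genes. Col5a2, the second type V chain, ran from 0.572 to 1.24 CPM in Ctrl with a median of 0.872. It ran from 1.27 to 3.40 after APAP with a median of 2.63, and every liver was above every Ctrl liver (1.46, SE 0.19, adjusted p = 1.25e-05). After TAA it stood at 2.46, 2.06, 2.29, 2.87 and 2.13, also without overlap (1.42, SE 0.17, adjusted p = 1.3e-06). Col1a1 ran from 3.94 to 18.6 CPM after APAP with a median of 8.40, overlapping Ctrl (1.02, SE 0.34, adjusted p = 0.0245), and limma on log2(CPM + 1) gave 0.79 with an adjusted p of 0.0515. Col1a2 ran from 6.04 to 16.7 CPM after APAP (0.57, adjusted p = 0.134) and Col3a1 from 11.9 to 59.0 (0.10, adjusted p = 0.84), so neither passed the test.

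One TAA liver stood apart in these genes. TAA livers 1, 3, 6, 7 and 8 had 62.4, 26.4, 15.3, 10.5 and 14.5 CPM of Col3a1, so mouse 1 was near the top of the Ctrl range and the last 3 were below the lowest Ctrl liver (-0.25, SE 0.35, adjusted p = 0.592). Without mouse 1 the Col3a1 value was -0.91 with an adjusted p of 0.0182. Col1a1 stood at 13.6, 9.00, 4.08, 3.36 and 3.83 in the same order (0.48, adjusted p = 0.272) and Col1a2 at 22.5, 8.45, 5.96, 4.33 and 6.32 (0.37, adjusted p = 0.418). Col27a1 went from 4.27 to 8.72 CPM in Ctrl to 0.654, 1.88, 1.47, 1.87 and 1.10 after TAA, with no overlap (-2.18, SE 0.21, adjusted p = 7.68e-08).

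Col5a3 is the third type V chain. In Ctrl it ran from 2.95 to 12.7 CPM with a median of 9.86. TAA livers had 1.59, 0.941, 0.831, 1.24 and 1.18, all below Ctrl (-3.00, SE 0.27, adjusted p = 2.43e-08), and APAP livers 0.833 to 5.65 with a median of 3.39, overlapping Ctrl (-1.47, SE 0.32, adjusted p = 0.00158). The 2 CIP livers had 9.24 and 11.7. CCl4 livers ran from 1.58 to 3.54 with a median of 2.32 (-2.03, SE 0.25, adjusted p = 0.00029) and GAL livers had 2.38, 0.729, 1.03 and 0.769 (-3.10, SE 0.50, adjusted p = 0.00765, and 0.0531 without CIP mouse 8). ConA livers ran from 0.543 to 2.32 with a median of 0.899, against 10.4 and 9.70 in CIV (-3.00, SE 0.42, adjusted p = 0.000546). The CCl4, GAL and ConA livers were all below their vehicle, while MDA livers, at 6.61 to 21.0 with a median of 18.9, were higher with overlap (0.64, SE 0.23, adjusted p = 0.0399). Scaled by library total, the MDA value was 0.61 with an adjusted p of 0.139.

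After ConA 4 of the 7 fibrillar collagens tested fell (17.3% of all genes), with a median of -1.26 beside 0.03 over all genes. Col3a1 ran from 8.10 to 22.3 CPM with a median of 14.2, against 27.1 and 44.7 in CIV, with no overlap (-1.26, SE 0.36, adjusted p = 0.0215). Leaving out CIV mouse 8 made this -0.88 with an adjusted p of 0.208, while against all 17 vehicle livers it was -1.07 with an adjusted p of 0.000256. Col5a1 ran from 0.956 to 3.68 against 5.14 and 5.29, and Col27a1 from 1.58 to 2.99 against 7.67 and 8.48, each without overlap. The log2 fold changes were -1.52 (SE 0.46, adjusted p = 0.0275) and -1.88 (SE 0.28, adjusted p = 0.000844), and that of Col5a1 lost its call without CIV mouse 7, at -1.50 with an adjusted p of 0.113, and without CIV mouse 8, at -1.53 with 0.104. Col1a1, at 1.61 to 5.76 CPM against 8.62 and 4.60, did not pass the test (-1.0, adjusted p = 0.123), nor did Col1a2, at 3.12 to 8.72 against 9.39 and 8.24 (-0.52, adjusted p = 0.334). With libraries scaled by their total these became -1.71 and -1.20, with adjusted p of 0.0124 and 0.0255.

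Most fibrillar collagens did not pass the test after CCl4 and GAL. After CCl4 2 of 8 fell (15.6% of all genes, median -0.07 beside 0.10) and after GAL 1 of 8 fell, under the 15.7% of all genes (median -0.18 beside 0.08). Col1a1 ran from 5.92 to 12.5 CPM after CCl4 and stood at 5.93, 7.09, 5.70 and 4.73 after GAL, against 7.91 and 7.92 in CIP. All 4 GAL livers were thus below both CIP livers and the CCl4 livers lay on both sides, and neither group passed the test (0.09, adjusted p = 0.81 after CCl4, and -0.43, adjusted p = 0.185 after GAL). Col1a2 and Col3a1 did not pass either, with Col3a1 at 26.3 to 72.6 CPM after CCl4 and at 28.9, 32.9, 32.0 and 26.3 after GAL, against 40.0 and 21.9. Col27a1 was lower after CCl4, at 2.27 to 4.58 CPM against 6.30 and 6.66 with no overlap (-1.05, SE 0.27, adjusted p = 0.0136), a call that was lost when either CIP mouse was left out (-1.08 and -1.03, adjusted p = 0.0684 and 0.0922) or when libraries were scaled by their total (-0.62, adjusted p = 0.113).

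**Figure D2:**
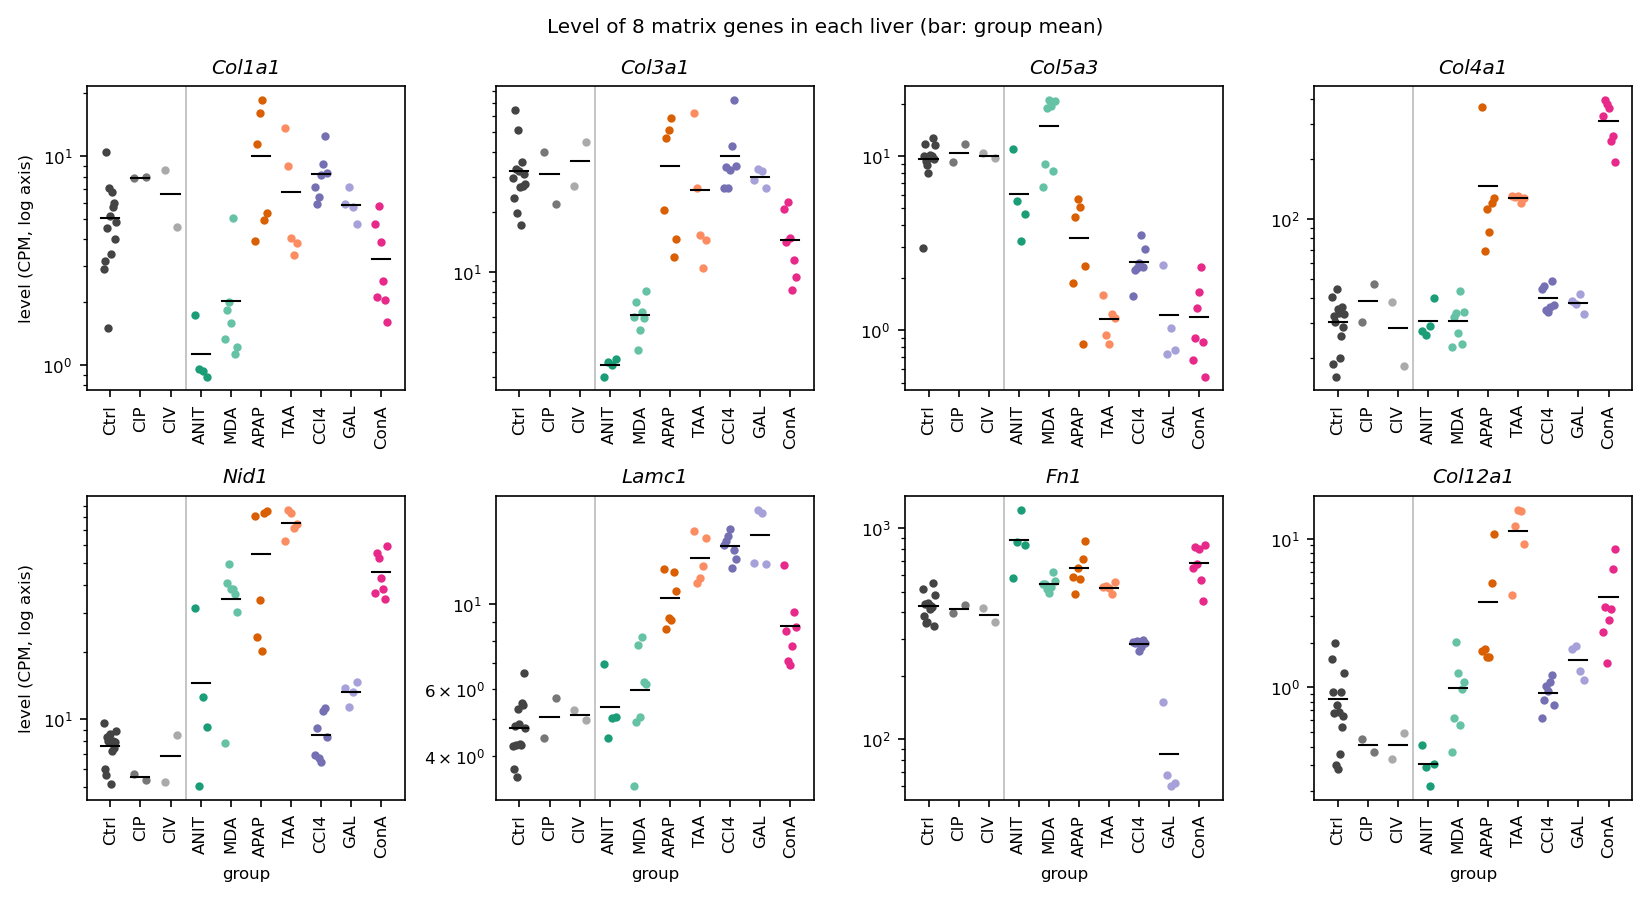
Level of 8 matrix genes in each liver, as CPM on a log axis (vertical) by group (horizontal), where points are livers and bars group means. Col3a1 is below all Ctrl livers in every ANIT and MDA liver, and Col4a1 is between 193 and 397 CPM after ConA against 38.0 and 18.3 in CIV.

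Among the basement membrane genes tested, 8 of 17 rose after APAP (17.3% of all genes), with a median log2 fold change of 0.55 beside 0.07 over all genes. After TAA 8 of 17 rose and 3 fell (26.4% and 24.0%), with a median of 0.56 beside 0.03, and after ConA 6 of 16 rose and 1 fell (16.8% and 17.3%), with a median of 0.73 beside 0.03. After ANIT 1 of 17 rose and 7 fell (14.0% and 14.2%), with a median of -0.60 beside -0.01, and after MDA 2 of 16 rose and 7 fell (17.4% and 16.4%), with a median of -0.41 beside 0.03. The counts after CCl4, with 2 of 17 higher and 3 lower (18.0% and 15.6%, median -0.47 beside 0.10), and GAL, with 2 of 16 higher and 1 lower (12.8% and 15.7%, median -0.04 beside 0.08), were near or under the shares of all genes.

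Collagen IV is the sheet-forming collagen, and its chains Col4a1 and Col4a2 were higher after APAP, TAA and ConA. Col4a1 ran from 193 to 397 CPM with a median of 331, against 38.0 and 18.3 in CIV, with no overlap (3.50, SE 0.43, adjusted p = 0.00026), an 11.3-fold higher level. Its range in Ctrl was 16.1 to 44.4 with a median of 32.6. TAA livers had 130, 129, 130, 121 and 127 CPM, close to one another and all above Ctrl (2.12, SE 0.18, adjusted p = 1e-08). APAP livers ran from 69.1 to 365 with a median of 116, also all above Ctrl (2.31, SE 0.27, adjusted p = 4.67e-06), and among the mice numbered above 4, which leaves out the liver with 365, the value was 1.91 (SE 0.24, adjusted p = 0.000291). Col4a1 did not pass the test after ANIT, at 27.2, 26.1, 28.9 and 40.0 CPM (0.01, adjusted p = 0.978), after MDA, at 22.8 to 43.2 (0.03, adjusted p = 0.929), or after CCl4, at 33.9 to 48.6 against 30.5 and 46.8 in CIP (0.09, adjusted p = 0.754, and 0.55 with 0.0372 when scaled by library total). After GAL, at 38.6, 37.4, 41.8 and 33.4 CPM, it was -0.02 with an adjusted p of 0.944, but 0.76 with an adjusted p of 0.0326 when libraries were scaled by their total.

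Col4a2, which shares its start region with Col4a1, was higher after the same compounds. It ran from 8.88 to 17.6 CPM in Ctrl with a median of 12.2, and from 30.0 to 52.2 after APAP with a median of 40.1 (1.68, SE 0.15, adjusted p = 3.96e-07). TAA livers had 40.1, 49.7, 39.1, 42.0 and 38.9 (1.75, SE 0.15, adjusted p = 1.02e-08). ConA livers ran from 28.3 to 47.1 with a median of 34.7, against 14.8 and 9.81 in CIV (1.64, SE 0.29, adjusted p = 0.002), and with libraries scaled by their total this was 0.99 with an adjusted p of 0.0515. None of these groups overlapped its vehicle. In ANIT (9.67 to 13.5), MDA (8.23 to 14.9), CCl4 (10.5 to 18.6) and GAL (13.3 to 17.0) livers Col4a2 did not pass the test, with log2 fold changes from -0.21 to -0.12.

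Col4a5, a minor chain named after its values were seen, was not called higher with any compound. It ran from 0.417 to 1.48 CPM in Ctrl and was lower with overlap after ANIT, at 0.476, 0.415, 0.291 and 0.521 (-0.97, SE 0.31, adjusted p = 0.0277), and TAA, at 0.701, 0.271, 0.341, 0.295 and 0.349 (-1.08, SE 0.30, adjusted p = 0.00555). GAL livers had 0.252, 0.294, 0.242 and 0.220, below 0.887 and 1.01 in CIP (-1.92, SE 0.44, adjusted p = 0.0221). That call was lost with libraries scaled by their total (-1.16, adjusted p = 0.0951) and with the replicate number range as a covariate (-1.99, adjusted p = 0.0723), and Col4a5 did not pass the test after APAP (-0.34, adjusted p = 0.392) or ConA (-0.74, adjusted p = 0.478).

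The ratio of Col4a1 to Col4a2, a description chosen after its values were seen, had medians from 2.11 in Ctrl to 3.24 in TAA in all groups but ConA, where it was 8.42 and ran from 5.56 to 11.4. The Ctrl range was 1.66 to 3.16. The 1 APAP liver with 365 CPM of Col4a1 reached 7.75.

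Nid1, the linker between the laminin and collagen IV networks, had its highest levels after TAA. In Ctrl it ran from 5.13 to 9.58 CPM with a median of 7.96. TAA livers had 62.4, 86.5, 83.8, 71.3 and 74.6 (3.37, SE 0.12, adjusted p = 5.46e-13), a 10.3-fold higher level, and APAP livers ran from 20.1 to 85.8 with a median of 57.8 (2.89, SE 0.25, adjusted p = 3.33e-07). Every liver of both groups was above Ctrl. ConA livers ran from 34.3 to 59.2 with a median of 42.7, against 5.25 and 8.50 in CIV (2.80, SE 0.34, adjusted p = 0.000262), and GAL livers had 13.7, 11.3, 13.2 and 14.7 against 5.72 and 5.35 in CIP (1.26, SE 0.20, adjusted p = 0.00806). Neither overlapped its vehicle, although the GAL call was lost without CIP mouse 8 (1.15, adjusted p = 0.0582). MDA livers ran from 7.82 to 49.3 with a median of 38.1, and only mouse 1 was within the Ctrl range (2.18, SE 0.21, adjusted p = 1.63e-07). After ANIT the livers spread widely, at 31.5, 5.01, 12.6 and 9.19 CPM (0.93, SE 0.28, adjusted p = 0.02), and without mouse 1 the value was 0.24 with an adjusted p of 0.447. The ANIT call was also lost with libraries scaled by their total (0.69, adjusted p = 0.0823), in limma (0.59, adjusted p = 0.108) and with the replicate number range as a covariate (0.97, adjusted p = 0.0873). CCl4 livers, at 6.42 to 11.3 CPM, were above both CIP livers but did not pass the test (0.67, adjusted p = 0.0828), and passed it with libraries scaled by their total (1.10, adjusted p = 0.0208).

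Nid2 and Hspg2, other linkers, were lower after ANIT and MDA. Nid2, the second nidogen, ran from 3.24 to 5.76 CPM in Ctrl and stood at 2.72, 1.18, 1.20 and 1.25 after ANIT, all below Ctrl (-1.48, SE 0.22, adjusted p = 0.000117). In 2 comparisons picked out after their values were seen, MDA livers had 1.23 to 3.67, lower with overlap (-0.71, SE 0.17, adjusted p = 0.00332), and ConA livers 4.56 to 8.04, above 3.34 and 3.55 in CIV (0.94, SE 0.29, adjusted p = 0.0325). The Nid2 call after ConA was lost with libraries scaled by their total (0.30, adjusted p = 0.556) and with the replicate number range as a covariate (0.82, adjusted p = 0.0795). Hspg2, which encodes perlecan, a heparan sulfate proteoglycan, ran from 4.46 to 10.7 CPM in Ctrl with a median of 8.23. It was lower with overlap after ANIT, at 4.33, 4.44, 3.53 and 6.06 (-0.79, SE 0.22, adjusted p = 0.0128, and 0.0646 without ANIT mouse 3), and after MDA, at 3.89 to 6.09 (-0.68, SE 0.16, adjusted p = 0.00292). The ANIT call was also lost with the replicate number range as a covariate (-0.70, adjusted p = 0.0770). APAP livers were higher with overlap, at 5.89 to 15.7 (0.56, SE 0.19, adjusted p = 0.0316, and 0.0649 with no filter on low values), and TAA livers did not pass the test (-0.14, adjusted p = 0.598). CCl4 livers, at 4.43 to 6.24, were below both CIP livers, at 7.12 and 9.18 (-0.62, SE 0.17, adjusted p = 0.0203), and this call was lost without CIP mouse 8 (-0.45, adjusted p = 0.219) and with libraries scaled by their total (-0.18, adjusted p = 0.51). In GAL (-0.15, adjusted p = 0.586) and ConA (-1.05, adjusted p = 0.0661) livers it did not pass the test, although against all 17 vehicle livers ConA gave -1.27 with an adjusted p of 4.4e-06, and with length-weighted values -1.05 with 0.0447. With libraries scaled by their total ConA gave -1.74 with an adjusted p of 0.00852, and without CIV mouse 8 the value was -1.53.

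Lamc1, the gamma chain of most laminins, ran from 3.54 to 6.62 CPM in Ctrl with a median of 4.76 and from 8.60 to 12.4 after APAP with a median of 10.0 (1.16, SE 0.13, adjusted p = 2.45e-06). It stood at 15.6, 11.3, 11.7, 12.6 and 14.9 after TAA (1.53, SE 0.13, adjusted p = 1.3e-08). CCl4 livers ran from 12.4 to 15.7 with a median of 14.3, against 4.47 and 5.69 in CIP (1.52, SE 0.14, adjusted p = 5.82e-05), and GAL livers had 12.8, 17.7, 17.3 and 12.7 (1.59, SE 0.26, adjusted p = 0.00821, and 0.058 without CIP mouse 7). None of these 4 groups overlapped its vehicle. After ConA, at 6.95 to 12.7 CPM against 5.28 and 4.99, it was 0.83 with an adjusted p of 0.0545 (0.96 with 7.5e-08 against all 17 vehicle livers, 0.84 with 0.0435 with length-weighted values and 0.80 with 0.0317 in DESeq2), and after ANIT and MDA it was 0.18 and 0.34 with adjusted p of 0.423 and 0.0904. With the replicate number range as a covariate the MDA value passed the test (0.40, adjusted p = 0.0369).

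Lamb3, a laminin beta chain of epithelia, was lower after CCl4, at 0.511 to 1.53 CPM against 2.55 and 2.44 with no overlap (-1.19, SE 0.39, adjusted p = 0.0415). That call was lost without either CIP mouse (-1.15 and -1.23, adjusted p = 0.176 and 0.162) and with libraries scaled by their total (-0.76, adjusted p = 0.167), with no filter on low values (-1.16, adjusted p = 0.0827) and with the replicate number range as a covariate (-1.23, adjusted p = 0.0534). After TAA, a comparison picked out after its values were seen, it was higher with overlap, at 5.27, 5.90, 3.81, 5.66 and 2.37 CPM against 1.12 to 4.86 in Ctrl (1.00, SE 0.28, adjusted p = 0.00595). Within the mice numbered 1 to 4 this was 1.82 (adjusted p = 0.0117), and within those numbered above 4 it did not pass (0.58, adjusted p = 0.182).

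Lamb1 and Lama1 are chains of the laminin of early embryos and, for Lamb1, of many adult tissues. Lamb1 ran from 1.77 to 3.85 CPM in Ctrl. It overlapped Ctrl in the 4 gavage groups, where it was lower after ANIT (-0.78, SE 0.24, adjusted p = 0.02) and MDA (-1.35, SE 0.24, adjusted p = 0.000212) and higher after APAP (0.55, SE 0.17, adjusted p = 0.0186, and 0.0513 with no filter on low values) and TAA (0.67, SE 0.17, adjusted p = 0.00235). The ANIT call was lost without ANIT mouse 1 (-0.63, adjusted p = 0.0717) or mouse 3 (-0.66, adjusted p = 0.0922), and with the replicate number range as a covariate (-0.76, adjusted p = 0.0767). Lamb1 did not pass the test after CCl4, GAL and ConA (-0.09, 0.24 and -0.59, with adjusted p of 0.8, 0.476 and 0.262), while GAL gave 0.998 with an adjusted p of 0.0232 when scaled by library total. Lama1 ran from 0.790 to 1.99 CPM in Ctrl and was 0.358, 0.234, 0.107, 0.422 and 0.416 after TAA, with no overlap (-2.03, SE 0.31, adjusted p = 1.87e-05). It was also lower, with overlap, after MDA, at 0.0861 to 1.18 (-2.01, SE 0.40, adjusted p = 0.000562), and ANIT, at 0.181, 0.402, 0.136 and 1.10 (-1.50, SE 0.43, adjusted p = 0.0151, and 0.0624 without mouse 3). With the replicate number range as a covariate the Lama1 value after ANIT was -1.35 with an adjusted p of 0.0732. ConA livers, at 0.0380 to 0.336, were below both CIV livers, at 1.39 and 1.13 (-3.02, SE 0.74, adjusted p = 0.0105), and this call was lost without CIV mouse 7 (-2.83, adjusted p = 0.0887) or mouse 8 (-3.21, adjusted p = 0.0513).

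Set side by side within each liver, the lists separated. For each liver the mean of log2(CPM + 1) over the 11 fibrillar and over the 20 basement membrane genes was taken relative to its route vehicle, with no test on these means. In Ctrl the basement membrane mean minus the fibrillar mean ran from -0.30 to 0.31 with a median of -0.01. ConA livers ran from 0.91 to 1.45 with a median of 1.27, TAA livers from 0.36 to 1.10 with a median of 0.85, and ANIT livers from 0.49 to 0.79 with a median of 0.67. All livers of these groups lay above the Ctrl range, as did the MDA livers, at 0.34 to 0.59 with a median of 0.49. APAP livers ran from -0.20 to 0.93 with a median of 0.31, CCl4 livers from 0.10 to 0.47 with a median of 0.22 and GAL livers from 0.24 to 0.36 with a median of 0.32. The same sign arose in different ways: in ANIT livers the fibrillar mean was -1.04 to -0.73 and the basement membrane mean -0.26 to -0.11, while in ConA livers these were -0.92 to -0.46 and 0.31 to 0.62.

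**Figure D3:**
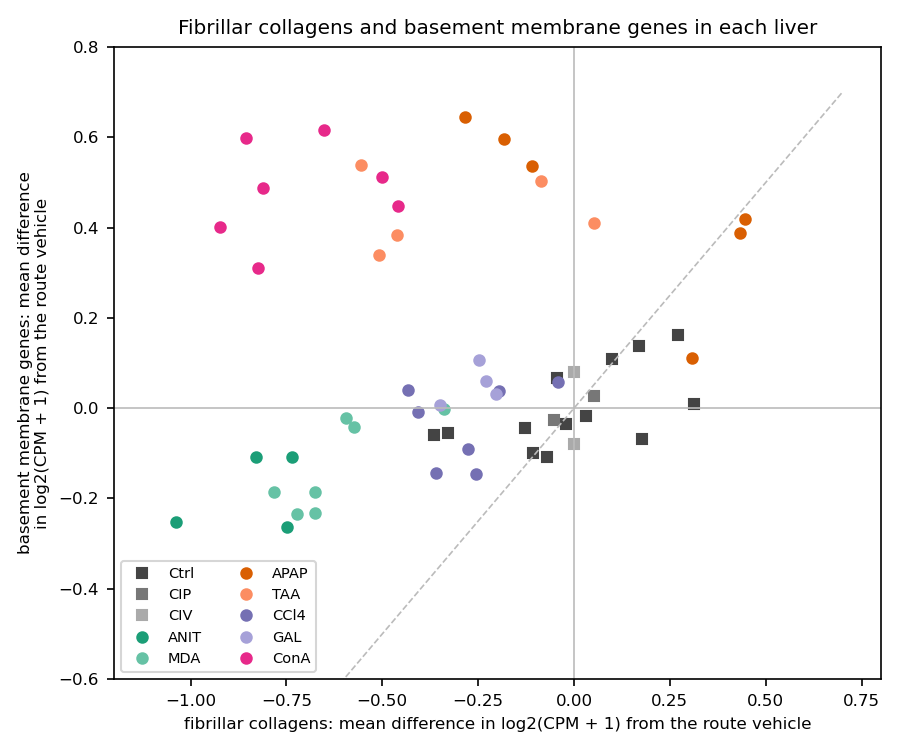
Each point is a liver, placed by its mean difference from the route vehicle in log2(CPM + 1) over the 11 fibrillar collagens (horizontal axis) and over the 20 basement membrane genes (vertical axis), and the dashed line marks equal values. ANIT and MDA livers lie to the left and below 0, ConA and TAA livers above 0 and mostly to the left, and APAP livers spread from -0.28 to 0.45 on the horizontal and from 0.11 to 0.65 on the vertical axis.

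The ratio of Col4a1 to Col3a1, also a description chosen after its values were seen, had a median of 0.926 in Ctrl, with a range of 0.507 to 1.38. It was 8.73 in ANIT, 4.51 in MDA, 5.41 in APAP, 8.48 in TAA and 22.5 in ConA, and the range in APAP was 1.46 to 18.0. Every liver of these 5 groups was above the Ctrl range. The CIP livers had 0.762 and 2.13 and the CIV livers 1.40 and 0.408. All ConA livers, at 16.0 to 30.5, were thus above both CIV livers. CIP mouse 8, at 2.13, was however above the lowest APAP liver, at 1.46, and the lowest TAA liver, at 2.08. CCl4 livers, at 0.670 to 1.69, and GAL livers, at 1.13 to 1.33, overlapped both Ctrl and CIP.

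**Figure D4:**
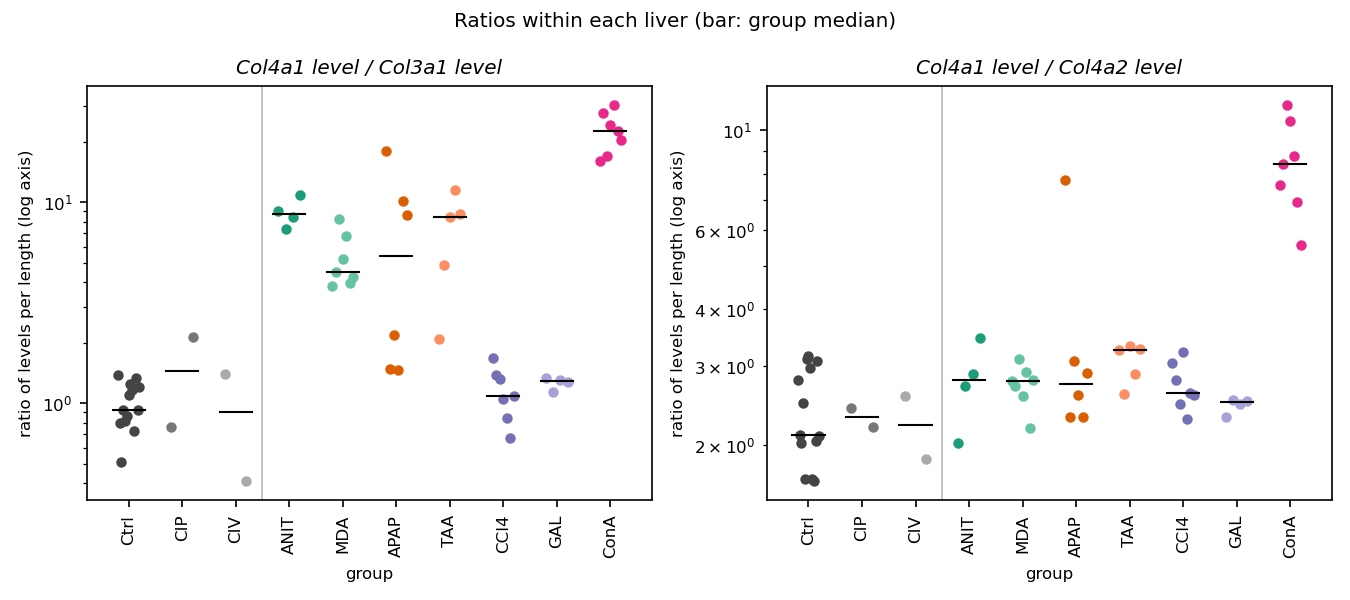
Ratios of levels per length within each liver (vertical, log axis) by group (horizontal), with bars at group medians: Col4a1 to Col3a1 and Col4a1 to Col4a2. The first is above the Ctrl range in all ANIT, MDA, APAP, TAA and ConA livers, although a CIP liver is above the lowest APAP and TAA livers. The second has its highest median, 8.42, in ConA livers.

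APAP and TAA livers were compared directly with ANIT and MDA livers, as the mean of one pair of groups minus the mean of the other. Of 37 members, 23 were higher after APAP and TAA and 2 lower, where 17.7% of all genes were higher and 13.8% lower. Fibrillar collagens gave 5 higher and 1 lower of 8 with a median of 1.74, and basement membrane genes 11 higher of 16 with a median of 0.95, beside 0.04 over all genes. Col3a1 differed by 2.72 (SE 0.33, adjusted p = 7.55e-06), Col1a1 by 2.46 (SE 0.37, adjusted p = 6.46e-05) and Col1a2 by 1.78 (SE 0.28, adjusted p = 0.000105). Col4a1 differed by 2.18 (SE 0.23, adjusted p = 1.77e-06), Col4a2 by 1.90 (SE 0.12, adjusted p = 8.19e-09), Lamb1 by 1.67 (SE 0.22, adjusted p = 2.13e-05) and Lamc1 by 1.07 (SE 0.14, adjusted p = 2.11e-05). The lower members were Col5a3, at -2.24 (SE 0.32, adjusted p = 3.46e-05), and Col18a1, at -0.50 (SE 0.13, adjusted p = 0.00723).

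CCl4 and GAL, which share a route and a vehicle, were also compared with each other. Of 37 members, 4 were higher after CCl4 and 12 lower, where 22.2% of all genes were higher and 20.3% lower. Among the higher members, Fn1 was at 1.69 (SE 0.24, adjusted p = 0.000173) without overlap, and Col5a3 and Col18a1 were at 0.98 and 0.75 with overlap. Among the lower members, Nid1 was at -0.68 (SE 0.18, adjusted p = 0.01) and Hspg2 at -0.56 (SE 0.13, adjusted p = 0.00494), again without overlap. Col7a1 was at -3.83 with overlap (SE 0.76, adjusted p = 0.00187).

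Fn1 had the highest mean level of all members in every group. It ran from 342 to 553 CPM in Ctrl with a median of 427 and stood at 582, 859, 1225 and 836 after ANIT, all above Ctrl (1.04, SE 0.15, adjusted p = 6.1e-05). APAP livers, at 488 to 867 with a median of 620 (0.63, SE 0.12, adjusted p = 0.000631), MDA livers, at 493 to 617 (0.35, SE 0.09, adjusted p = 0.0061), and TAA livers, at 525, 530, 521, 489 and 553 (0.34, SE 0.11, adjusted p = 0.013), were higher with overlap. With libraries scaled by their total, MDA and TAA gave 0.29 and 0.35 with adjusted p of 0.122 and 0.0612. ConA livers, at 452 to 833 with a median of 678, were above both CIV livers, at 417 and 360 (0.87, SE 0.28, adjusted p = 0.0325), and this was lost without CIV mouse 7 (1.02, adjusted p = 0.0783) or mouse 8 (0.75, adjusted p = 0.165), fits in which the lone control is assumed to vary like the treated mice, and with libraries scaled by their total (0.28, adjusted p = 0.611). GAL livers had 151, 67.4, 59.8 and 61.9 CPM, below 398 and 432 in CIP (-2.29, SE 0.39, adjusted p = 0.00897). The call was lost without CIP mouse 7 (-2.29, adjusted p = 0.0524) and without CIP mouse 8 (-2.29, adjusted p = 0.0554). CCl4 livers, at 261 to 295, were also below CIP (-0.52, SE 0.09, adjusted p = 0.00221), but the value was -0.07 with an adjusted p of 0.67 with libraries scaled by their total. Of 5 hepatocyte markers (Alb, Apoa1, Ttr, Serpina1c and Cps1) 5 fell after GAL (15.7% of all genes, median -1.48) and 5 after CCl4 (15.6%, median -1.36). Their summed level was 25011 to 33138 CPM after GAL and 19421 to 29602 after CCl4, against 54650 to 60537 in CIP, and their part in the Fn1 values was not tested.

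The multiplexins sit at basement membranes and carry heparan or chondroitin sulfate, and the end of Col18a1 yields endostatin. Col18a1 is known to be made by hepatocytes and was the second most abundant member in Ctrl, at 230 to 455 CPM with a median of 363. GAL livers had 115, 51.0, 46.7 and 57.6, against 347 and 396 in CIP (-2.46, SE 0.36, adjusted p = 0.00583), and CCl4 livers 96.2 to 132 (-1.63, SE 0.12, adjusted p = 1.67e-05). Neither overlapped CIP, and the hepatocyte markers that moved with Fn1 in these livers moved with Col18a1 as well, a part that was not tested either. It was lower with overlap after APAP, at 133 to 256 (-0.86, SE 0.16, adjusted p = 0.000388), and TAA, at 237, 124, 126, 150 and 146 (-1.14, SE 0.17, adjusted p = 2.26e-05). Col15a1 ran from 1.41 to 13.3 CPM in Ctrl and stood at 4.04, 2.17, 1.05, 2.07 and 0.628 after TAA, lower with overlap (-1.52, SE 0.50, adjusted p = 0.015), although mice numbered 1 to 4 alone gave -0.24 with an adjusted p of 0.81.

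Fibril-associated collagens coat the surface of fibres. Col12a1, which tunes fibre spacing in tissues under load, ran from 0.283 to 1.98 CPM in Ctrl with a median of 0.677. TAA livers had 4.17, 12.2, 15.7, 15.3 and 9.19, all above Ctrl (3.81, SE 0.35, adjusted p = 3.72e-08), and APAP livers ran from 1.60 to 10.8 with a median of 1.79, overlapping it (2.23, SE 0.43, adjusted p = 0.000622). ConA livers ran from 1.46 to 8.49 with a median of 3.34, against 0.329 and 0.495 in CIV with no overlap (3.37, SE 0.76, adjusted p = 0.00718, and 0.0651 without CIV mouse 7). The APAP value was 0.47 with an adjusted p of 0.546 among mice numbered 1 to 4. Col14a1, a related chain, went down: from 8.47 to 19.9 CPM in Ctrl to 1.96 to 7.57 after MDA with a median of 4.48 (-1.71, SE 0.22, adjusted p = 4.59e-06). CCl4 livers had 7.77 to 11.4 of it, below 16.7 and 20.1 in CIP (-0.91, SE 0.16, adjusted p = 0.00229), and neither group overlapped its vehicle. With libraries scaled by their total the CCl4 value was -0.46 with an adjusted p of 0.107.

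Collagen VI forms the beaded microfibrils next to cells. Col6a3 ran from 1.65 to 5.25 CPM in Ctrl and stood at 1.89, 0.694, 0.451 and 0.665 after ANIT, with 3 of 4 livers below Ctrl (-1.59, SE 0.36, adjusted p = 0.00302). ConA livers had 0.453 to 1.41 of it with a median of 0.873, against 3.63 and 4.57 in CIV with no overlap (-2.09, SE 0.38, adjusted p = 0.00222). Col6a2 ran from 1.30 to 4.77 CPM in Ctrl and was lower with overlap after ANIT, at 0.933, 1.44, 0.798 and 1.04 (-1.50, SE 0.28, adjusted p = 0.000839), and after MDA, at 0.630 to 1.58 with a median of 1.18 (-1.47, SE 0.25, adjusted p = 0.000114). After APAP, TAA, CCl4 and GAL no chain of Col6a1, Col6a2 and Col6a3 passed the test.

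Single members outside these families changed too. Col7a1, which forms the anchoring fibrils under skin epithelium, stood at 0.291, 2.78, 1.75 and 1.97 CPM after GAL, against 0.0750 and 0.184 in CIP, with no overlap (3.84, SE 1.08, adjusted p = 0.0402). Its adjusted p ran from 0.0724 to 0.192 in 5 of the 6 fits that each left out 1 mouse. Col13a1, a transmembrane collagen of cell contacts, ran from 1.30 to 2.79 CPM in Ctrl. It stood at 3.60, 7.43, 9.17 and 3.32 after ANIT (1.54, SE 0.23, adjusted p = 0.000118) and ran from 4.38 to 7.34 after MDA with a median of 6.79 (1.64, SE 0.15, adjusted p = 6.44e-08), all above Ctrl. APAP livers ran from 1.01 to 29.2 with a median of 3.76, with overlap (2.05, SE 0.47, adjusted p = 0.00239), and limma on log2(CPM + 1) gave 0.94 with an adjusted p of 0.0716.

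Some changes were picked out after their values were seen. Lama3, a laminin alpha chain of epithelia, ran from 0.193 to 1.39 CPM in Ctrl and was 0.172, 0.0421, 0.0823 and 0.0900 after ANIT (-2.89, SE 0.57, adjusted p = 0.00115) and 0.0181 to 0.103 after MDA (-3.73, SE 0.51, adjusted p = 1.02e-05). Both groups lay below Ctrl, and Lama3 was also called lower after TAA. Lama5, the alpha chain of most mature basement membranes, ran from 1.40 to 5.96 CPM after ConA, against 1.09 and 0.423 in CIV with no overlap (2.31, SE 0.68, adjusted p = 0.0242). Lama5 was also called higher after APAP, MDA and TAA. Lamc3 stood at 2.31, 2.43, 2.11, 1.84 and 2.43 CPM after TAA, all above the Ctrl range of 0.170 to 1.08 (1.59, SE 0.25, adjusted p = 3.09e-05). Col12a1 was higher after CCl4 (1.14, SE 0.37, adjusted p = 0.04) and GAL (1.82, SE 0.42, adjusted p = 0.0232) and lower after ANIT (-1.41, SE 0.51, adjusted p = 0.0472). Col18a1 was lower after ANIT (-0.45, SE 0.15, adjusted p = 0.028) and MDA (-0.58, SE 0.12, adjusted p = 0.000856).

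The genes that fold, cross-link, cut and sense matrix were read from lists alongside, each count beside the share of all genes called in the same comparison. Of 21 folding and cross-linking genes tested, 12 rose after APAP (17.3% of all genes), 2 rose and 6 fell after ANIT (14.0% and 14.2%) and 2 rose and 6 fell after MDA (17.4% and 16.4%). TAA gave 9 higher and 3 lower of 22 (26.4% and 24.0%), CCl4 5 and 1 of 23 (18.0% and 15.6%), GAL 2 and 5 of 22 (12.8% and 15.7%), and ConA 4 and 2 of 22 (16.8% and 17.3%). The counts of genes higher after CCl4, GAL and ConA were near or under those shares. Pcolce, which speeds the trimming of procollagen, was 10.8 ± 3.05 CPM in Ctrl (SD, n = 13), 4.40 ± 0.911 after ANIT (SD, n = 4; -1.28, SE 0.24, adjusted p = 0.000816) and 4.04 ± 0.715 after MDA (SD, n = 7; -1.41, SE 0.18, adjusted p = 5.41e-06). Loxl2, a cross-linking oxidase, was 2.50 ± 0.601 CPM in Ctrl, 7.55 ± 2.38 after APAP (SD, n = 6; 1.62, SE 0.18, adjusted p = 2.45e-06) and 1.16 ± 0.525 after MDA (-1.10, SE 0.24, adjusted p = 0.00108). Tgm2, a transglutaminase that cross-links fibronectin, was 403 ± 75.0 CPM after TAA (SD, n = 5) against 75.6 ± 30.3 in Ctrl (2.46, SE 0.22, adjusted p = 2.67e-08). After ConA it reached 1760.5 ± 200.1 (SD, n = 7) against 71.0 ± 31.7 in CIV (SD, n = 2; 4.68, SE 0.35, adjusted p = 2.77e-05).

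Prolyl hydroxylase stabilises the collagen helix. P4ha2, one of its catalytic subunits, was 20.3 ± 2.95 CPM after CCl4 (SD, n = 7) against 2.44 ± 0.181 in CIP (SD, n = 2; 3.10, SE 0.22, adjusted p = 1.42e-05), and it was also higher after GAL (1.61, adjusted p = 0.00916) and ConA (2.76, adjusted p = 0.00167). P4hb, the abundant shared subunit that also folds other proteins, fell to 222 ± 31.9 CPM after GAL (SD, n = 4), against 1129.9 ± 190.5 in CIP (SD, n = 2; -2.35, SE 0.17, adjusted p = 0.00208) and was higher after ANIT (0.53, adjusted p = 0.0101) and MDA (0.56, adjusted p = 0.00506). The P4ha2 calls after GAL and ConA and the P4hb calls after ANIT and MDA were picked out after their values were seen, and differences between compounds were not tested for these genes.

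Of the matrix proteases and their inhibitors, 12 rose and 2 fell of 17 after APAP (17.3% and 14.6% of all genes), 13 and 2 of 18 after TAA (26.4% and 24.0%), 8 and 1 of 17 after CCl4 (18.0% and 15.6%) and 10 and 2 of 18 after ConA (16.8% and 17.3%). After GAL 9 of 17 rose (12.8%). ANIT gave 3 and 3 of 14 (14.0% and 14.2%) and MDA 5 and 4 of 14 (17.4% and 16.4%). Mmp12, the macrophage elastase, was 36.0 ± 21.2 CPM after GAL and 13.3 ± 8.01 after CCl4, against 0.404 ± 0.177 in CIP (6.56, SE 0.85, adjusted p = 0.00399, and 5.17, SE 0.91, adjusted p = 0.00216).

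Receptors for matrix showed 10 higher and 1 lower of 19 after APAP (17.3% and 14.6% of all genes) and 8 and 3 of 19 after TAA (26.4% and 24.0%). The counts were near or under the shares of all genes for ANIT, with 2 and 2 of 20 (14.0% and 14.2%), MDA, with 3 and 4 of 19 (17.4% and 16.4%), CCl4, with 4 and 4 of 20 (18.0% and 15.6%), GAL, with 4 and 2 of 20 (12.8% and 15.7%), and ConA, with 3 and 2 of 19 (16.8% and 17.3%). Itga6, the alpha chain of laminin-binding integrins, was 1.27 ± 0.416 CPM in Ctrl, 5.62 ± 2.38 after APAP (2.19, SE 0.24, adjusted p = 2.22e-06) and 4.77 ± 0.705 after TAA (1.96, SE 0.20, adjusted p = 1.75e-07). Of the TGF-beta genes, the pathway best known for driving fibrillar collagen, 8 of 15 rose after APAP (17.3% of all genes), 10 of 16 after TAA (26.4%), 8 of 16 after GAL (12.8%), and 4 of 16 after each of CCl4 (18.0%) and ConA (16.8%). ANIT gave 2 higher and 1 lower of 15 (14.0% and 14.2%) and MDA 3 higher and 1 lower of 14 (17.4% and 16.4%). Ccn2, a matricellular target of the pathway, was higher after all 7 compounds. After ANIT and MDA it stood at 9.73 ± 2.42 and 9.74 ± 1.98 CPM against 4.12 ± 2.05 in Ctrl (1.24, SE 0.34, adjusted p = 0.0121, and 1.24, SE 0.27, adjusted p = 0.0013). The log2 fold change of Ccn2 was 3.31 after APAP (adjusted p = 3.67e-05), 5.30 after TAA (adjusted p = 1.45e-10), 1.87 after CCl4 (adjusted p = 0.00263), 1.61 after GAL (adjusted p = 0.0094) and 2.59 after ConA (adjusted p = 0.00265). Ccn1, a related protein of the same list, was lower after ANIT, at 3.75 ± 2.21 against 7.96 ± 2.55 CPM in Ctrl (-1.09, SE 0.36, adjusted p = 0.0316), and did not pass the test after MDA (0.40, adjusted p = 0.281). It was higher after the other compounds, at 2.48 after APAP (adjusted p = 0.000119), 4.96 after TAA (adjusted p = 9.55e-12), 1.57 after CCl4 (adjusted p = 0.00809), 1.94 after GAL (adjusted p = 0.0133) and 5.77 after ConA (adjusted p = 9.28e-05). Tgfb1, the ligand, did not pass the test after ANIT (-0.29, adjusted p = 0.389), MDA (-0.26, adjusted p = 0.341), TAA (0.52, adjusted p = 0.0523), CCl4 (-0.11, adjusted p = 0.701) or ConA (0.63, adjusted p = 0.292), and was higher after APAP (0.93, adjusted p = 0.00159) and GAL (0.84, adjusted p = 0.0424).

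Markers of the cells that make matrix, and of other liver cells, moved with some of these results, and their part in them was not tested. Of 8 stellate cell markers, 1 rose and 2 fell after ANIT (14.0% and 14.2% of all genes) and 1 rose and 6 fell after MDA (17.4% and 16.4%), and their summed level was 168 to 390 CPM after ANIT and 73.2 to 265 after MDA, against 176 to 394 in Ctrl. All 8 were detected at or above 0.1 CPM on average in every group. Of 5 portal fibroblast and mesothelium markers tested, 1 fell after ANIT (Eln, -1.11, adjusted p = 0.0377) and 1 after MDA (Eln, -1.08, adjusted p = 0.00601), beside 14.2% and 16.4% of all genes, with medians of -0.95 and -0.70. That list of 7 summed to 2.20 to 5.15 CPM after ANIT, with Wt1 under 0.1 CPM on average, and to 3.00 to 10.00 after MDA, against 4.60 to 12.8 in Ctrl. After APAP it summed to 4.99 to 19.5 and after TAA to 5.07 to 10.5, with Fbln2 called higher in each. After APAP 4 of the 8 stellate cell markers rose (17.3% of all genes), after TAA 3 rose and 1 fell (26.4% and 24.0%), after CCl4 2 fell (15.6%), after GAL the 8 did not pass the test, and after ConA 3 fell (17.3%). Their sum after ConA was 337 to 580 CPM, against 312 to 349 in CIV. The smooth muscle list (Acta2, Tagln, Myh11 and Cnn1) summed to 3.47 to 18.8 CPM in Ctrl, 1.47 to 3.84 after ANIT, 2.50 to 6.12 after MDA, 3.95 to 210.0 after APAP and 105 to 182 after TAA. Acta2 and Tagln were called lower after ANIT and MDA and higher after APAP, TAA and CCl4. These genes made up most of the sum, with means of 47.6 and 81.3 CPM after TAA, where Myh11 had 0.505 and Cnn1 0.165. Myh11 did not pass the test after TAA (0.59, adjusted p = 0.0852) or CCl4 (0.18, adjusted p = 0.815) and was not tested after APAP, and Cnn1 was not tested with any compound. After CCl4 the list summed to 34.5 to 55.5 CPM against 15.6 to 20.9 in CIP. It summed to 4.59 to 14.6 after ConA, below 19.0 to 20.9 in CIV, with Acta2 and Tagln called lower and Myh11 and Cnn1 under 0.1 CPM on average. Markers of other endothelium summed to 80.4 to 168 CPM after ConA against 32.7 to 35.9 in CIV, and to 72.5 to 103 after TAA and 51.4 to 115 after APAP against 31.0 to 52.2 in Ctrl. Markers of sinusoidal endothelium summed to 70.5 to 121 CPM after ConA, below 149.9 to 163.7 in CIV, and to 88.3 to 118 after CCl4, below 148 to 177 in CIP. Of these 7 markers 4 fell and 1 rose after ConA (17.3% and 16.8% of all genes) and 4 fell after CCl4 (15.6%). After TAA 5 fell and 2 rose (24.0% and 26.4%), and the sum of 115 to 154 overlapped Ctrl. After ConA the cholangiocyte list summed to 95.6 to 209.6 CPM against 27.4 to 62.4 in CIV, with 3 of 6 higher (16.8% of all genes), the Kupffer cell list to 37.4 to 72.4 against 346 to 389, with 5 of 5 lower (17.3%), and the neutrophil list to 126 to 287 against 7.81 to 8.84, with 4 of 5 higher (16.8%). After TAA 5 of 5 neutrophil markers rose (26.4% of all genes), and their sum was 157 to 813 CPM against 2.11 to 60.8 in Ctrl. Of the 4 neutrophil markers tested with the other compounds, 1 rose after ANIT (14.0% of all genes), 3 after APAP (17.3%), 2 after MDA (17.4%), 2 after CCl4 (18.0%) and 4 after GAL (12.8%).

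Some cholangiocyte markers were called after ANIT, MDA, APAP, TAA and ConA, and their part was not tested. Of the 6, Krt7 (-1.61, adjusted p = 0.0377) and Spp1 (-1.19, adjusted p = 0.021) fell and Sox9 rose (1.5, adjusted p = 0.00571) after ANIT (14.2% of all genes lower and 14.0% higher). The list median was -0.75 and the sum 19.5 to 35.8 CPM, against 23.7 to 107 in Ctrl. After MDA 1 of 6 rose, near the 17.4% of all genes (Sox9, 1.16, adjusted p = 0.00229), with a sum of 29.4 to 67.7. After APAP 2 rose (17.3% of all genes, Sox9 and Spp1, sum 54.0 to 205) and after TAA 2 rose (26.4%, Sox9 and Epcam, sum 60.2 to 103), while after CCl4 and GAL the 6 did not pass the test. Of 5 Kupffer cell markers 3 fell after CCl4 (15.6% of all genes, Clec4f, Vsig4 and C1qa), with a sum of 140 to 387 CPM against 427 to 429 in CIP. Cd5l alone rose after GAL (12.8%). Clec4f alone fell after ANIT (14.2%), MDA (16.4%), APAP (14.6%) and TAA (24.0%). Of the 5 hepatocyte markers 3 fell after MDA (16.4% of all genes, Ttr, Serpina1c and Cps1). After APAP 2 fell, among them Cps1 (-1.46, adjusted p = 1.42e-05), and 1 rose (14.6% and 17.3%). After TAA 2 fell and 1 rose (24.0% and 26.4%), and Ttr alone fell after ANIT (14.2%) and ConA (17.3%).

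Choice of control and of scaling changed the counts for the injected mice. Against all 17 vehicle livers, CCl4 gave 3 higher and 14 lower of 36 members (26.2% and 27.2% of all genes), GAL 7 higher and 6 lower of 38 (25.1% and 27.5%), and ConA 12 higher and 12 lower of 36 (34.3% and 33.7%). In that fit ConA raised 9 and lowered 4 of 17 basement membrane genes and lowered 5 of 8 fibrillar collagens. Scaling by library total moved the median of all genes from 0.10 to 0.53 after CCl4, from 0.08 to 0.84 after GAL and from 0.03 to -0.56 after ConA. With that scaling CCl4 gave 6 higher and 2 lower of 37 (29.7% and 7.16%), GAL 10 and 3 (35.6% and 5.44%), ConA 4 and 13 of 34 (7.79% and 26.5%), MDA 2 and 18 of 36 (11.5% and 14.4%), and CCl4 against GAL 2 and 16 of 37 (13.9% and 28.6%). ConA then lowered 6 of 7 fibrillar collagens (median -1.90) and raised 3 and lowered 2 of 16 basement membrane genes (median 0.09), so that the fibrillar median still lay below that of all genes and the basement membrane median above it. The fibrillar median turned from -0.07 to 0.34 after CCl4 and from -0.18 to 0.61 after GAL, in each case below the median of all genes in the same fit.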

How the data were processed

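Poly(A) RNA from 57 mouse livers was sequenced single-end after TruSeq stranded library preparation, per the labels' protocols. The authors deposited estimated counts for 54307 genes in 57 columns. The submitters' processing notes name Salmon 1.6.0, R 4.1.3 and GRCm39, and the summing to genes is not given in the sources used here. The smallest values above 0 fall with gene length (median 1.01 in genes of 1000 to 1500 nt, 0.200 in genes of 5000 to 10000 nt), so the values appear to be divided by length. Symbols were matched for 51482 IDs, and 2825 had none.

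Values were rounded and tested with edgeR 4.0.16 (R 4.3.3), using filterByExpr, TMM scaling and the quasi-likelihood test of each compound against its route vehicle, with Benjamini-Hochberg adjustment over all genes tested and a threshold of 0.05. SEs are the log2 fold change divided by the root of F. CPM were scaled by TMM over all samples. The tests were also run on counts simulated with edgeR's own fitted spread, which cannot show how they behave on values divided by length. Alternatives used library totals, DESeq2 1.42.0, limma 3.58.1, other filters, all vehicles, replicate numbers as a block or range, and samples left out. Values multiplied by transcript length, mice numbered 1 to 4 only and mice above 4 only were added after seeing the data. P-values measure the spread between these mice, and the labels do not say whether any were dosed or sequenced together. Livers of the same number in a compound or vehicle group and its comparison group correlated at -0.296 to 0.306 in their deviations from group means, with TAA at 0.013 to 0.306. Livers of different numbers were not set beside these, so whether the numbers pair samples was not tested.

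The members and lists were chosen with earlier results of these data known. In every comparison Col1a1, Col1a2, Col3a1, Col4a1, Col4a2, Lamb1, Lamc1, Nid1, Hspg2 and Fn1 were named. Added to these were, among called members with a mean of at least 1 CPM in either group, the 3 fibrillar, 3 basement membrane and 3 other genes with the largest log2 fold change, and up to 2 called genes of each list of other matrix genes. Promoter sequences are from RefSeq, GRCm38.p6. Some results that this rule would name are not reported here.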

Additional observations from a re-analysis of the deposited data

Results flagged for a closer look

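In groups of 4 to 10 livers, a liver whose gap to its neighbour took up more of the group's range than Dixon's limit allows was picked out for the 10 genes described throughout. Chance picks out about 1 in 20 groups, and 8 of 70 were picked out. Col1a1 was 1.74 CPM in ANIT mouse 1, with the next liver at 0.956, and 5.06 in MDA mouse 7, with the next at 2.02. Col1a2 was 22.5 CPM in TAA mouse 1, with the next at 8.45, and 15.5 in CCl4 mouse 11, with the next at 8.92. CCl4 mouse 11 also had 72.6 CPM of Col3a1, with the next at 42.8. Col4a1 was 365 CPM in APAP mouse 1, with the next at 127. Col4a2 was 49.7 CPM in TAA mouse 3, with the next at 42.0. Fn1 was 151 CPM in GAL mouse 2, with the next at 67.4.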

How the results depend on the processing

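The counts of members called moved by over 1.5 times with these other settings. A filter of 5 CPM, which tests fewer genes, gave 8 after ANIT, 10 after APAP, 8 after MDA, 8 after TAA, 7 after CCl4, 4 after GAL, 5 after ConA, 9 for CCl4 against GAL and 11 for APAP and TAA against ANIT and MDA. Of all genes that filter called 1347 higher and 1317 lower of 7509 after ANIT, 1639 and 1579 of 7872 after APAP, and 1582 and 1555 of 7657 after MDA. It called 2317 and 2315 of 7815 after TAA, 2005 and 2157 of 8839 after CCl4, 1906 and 2062 of 9264 after GAL, and 1460 and 1551 of 7104 after ConA. CCl4 against GAL gave 2352 and 2431 of 9289, and the combined contrast 1457 and 1307 of 7922. With the replicate number as a block the counts were 4 after ANIT and 3 after APAP, and the numbers share no source in the labels. Of all genes the block left 460 higher and 502 lower of 14072 after ANIT, and 97 and 133 of 13939 after APAP. Mice numbered 1 to 4 alone, an added choice with fewer samples, gave 13 after ANIT, 4 after APAP, 10 after MDA and 13 after TAA. Of all genes these fits called 845 higher and 843 lower of 12320 after ANIT, 384 and 440 of 13115 after APAP, 621 and 671 of 12477 after MDA, and 1546 and 1143 of 13831 after TAA. All 17 vehicles gave 17 after CCl4, 13 after GAL and 24 after ConA, and library totals gave 13 after GAL, with the shares of all genes given above. The number range as a covariate gave 5 after GAL, where 1392 of 15509 genes were higher and 1923 lower. Mice were left out 1 at a time only from groups of 2 to 5, so none from Ctrl, APAP, MDA, CCl4 or ConA. The counts, whether or not they moved that far, were 12 to 21 after ANIT (12 without ANIT mouse 3), 19 to 25 after TAA, 6 to 8 after CCl4 (6 without CIP mouse 8), 2 to 9 after GAL (3 without CIP mouse 7, 2 without CIP mouse 8, 5 without GAL mouse 4), 9 to 9 after ConA (without either CIV mouse), 7 to 13 for CCl4 against GAL (7 without GAL mouse 4, 8 without GAL mouse 7), 22 to 26 for the combined contrast, and 0 to 0 for CIP and for CIV against Ctrl. Col4a1 after GAL turned from -0.02 to 0.76 with library totals. The cause was not tested where none is named. DESeq2 left 110 of 111 single values on their side of the threshold. Leaving out 1 mouse ended a call in 30 of 293 single values, the replicate block in 26 of 78 and the restriction to mice 1 to 4 in 22 of 64. These totals include values not called in the main fit, so the share of calls that ended was larger. CIP and CIV hold 2 mice each, which limits every comparison of injected mice, and 20 members were too low to test.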
